A study of Mus musculus with 7 samples.

Results

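Accessible chromatin was described at 10 mouse genes of Notch signalling and its dental context: the ligand genes Jag1, Jag2 and Dll1, the receptor genes Notch1, Notch2 and Notch3, the modifier Lfng, the target genes Hes1 and Hey1, and Tbx1. The genes were chosen by name from 20665 autosomal protein-coding genes, by no threshold on measured values but with earlier results of these data known. A peak belonged to a gene if it lay in the gene body or within 50 kb of it. The 10 windows held 157 and 125 peaks in the 2 ectoderm libraries, 112 and 121 in the 2 Sox2-positive libraries, 149 in the whole incisor, 165 in the lower first molar and 156 in the upper first molar.

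The study comprised 7 mouse ATAC-seq libraries of 5 groups, made by inserting sequencing adapters with a transposase wherever nucleosomes leave the DNA exposed. The first group was arch ectoderm, the surface layer of the first pharyngeal arches from which the tooth epithelium forms, peeled from the mesenchyme at embryonic day 11.5 after Dispase II treatment (2 libraries). The second was Sox2-positive cells of the labial cervical loop, the epithelial niche at the growing end of the mouse incisor, at postnatal day 2 (2 libraries). These cells were dissociated with Collagenase and Neutral Protease and sorted on GFP in a Sox2-GFP line, where the endogenous Sox2 promoter drives the reporter, and are DESC, dental epithelial stem cells, by their labels. At postnatal day 2, 1 library each was also made from a whole lower incisor, lower first molar and upper first molar. Whole teeth hold epithelium together with pulp, vessels and nerves. The labels name no strain, no sex, no number of animals and no batch, and do not say whether the replicates came from separate animals, so the spread between them may be technical. Stage, tissue, dissociation and sorting all differ between the replicated groups and cannot be told apart.

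In Notch signalling a ligand of the Jagged or Delta family on one cell binds a Notch receptor on its neighbour, the receptor is cut, and its intracellular part enters the nucleus and joins the DNA-binding protein RBPJ to switch on target genes of the Hes and Hey families. Fringe enzymes such as the product of Lfng add sugars to the receptor and change which ligands it answers to. In the continuously growing mouse incisor the pathway is known from the cervical loop and from the stratum intermedium, the cell layer beside the enamel-forming ameloblasts. Tbx1 encodes a T-box transcription factor of dental epithelium and of the pharyngeal region. It is not a component of the Notch pathway.

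The lists differed in length, from 38326 autosomal peaks in Sox2-positive replicate 2 to 80850 in ectoderm replicate 1. The peak numbers of each gene are therefore also given from equal-length lists, the 38000 autosomal peaks of each library with the lowest p-values, which kept 99.1% of the shortest list and 47.0% of the longest. The median number of peaks in a gene window over all genes was 7 and 5 in the ectoderm libraries and 4 in both Sox2-positive libraries in the full lists, and 4 in every library in the equal-length lists. The sequencing depth is unknown, because the lists hold no read counts, so a missing peak means only that none was listed. Of 8 markers of oral and dental epithelium, 7 had a peak at the gene start in every library in the full lists; Trp63, which encodes the basal epithelial factor p63, had none at the starts used. Markers of mesenchyme had a start peak at 4 of 7 genes in both ectoderm libraries, at 5 in both Sox2-positive libraries and the incisor, and at 6 and 7 in the molars. Of 6 endothelial genes, Pecam1, Tek and Emcn had none in any library, Kdr had one in every full list, Tie1 in 3 and Cdh5 in 2. In these bulk samples fewer cells with an open site and a less open site in each cell cannot be told apart.

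All 10 genes had a peak within 1 kb of the gene start in each of the 7 full lists, where 55.7% of all genes did. In the equal-length lists 9 of 10 did, against 51.4% of all genes, the exception being Notch3 in both molars. Beyond the presence of a start peak, the libraries differed in how many further peaks surrounded it and in how wide it was. Peak numbers in the full lists were higher in both ectoderm than in both Sox2-positive libraries at 5 of 10 genes (Jag1, Jag2, Notch3, Hes1 and Hey1), beside 41.4% of all genes. The reverse held at 0 of 10 genes, beside 3.07% of all genes. In the equal-length lists ectoderm was higher at 4 genes (Jag1, Jag2, Notch3 and Hey1), beside 20.1% of all genes, and Sox2-positive cells at 2 (Notch2 and Lfng), beside 17.6%. The shares over all genes were not matched for peak number. The median window over all genes held 4 peaks in every equal-length list, and most of the 10 windows held more. With 2 libraries against 2, an exact two-sided permutation test of a single gene cannot give a p below 0.333, so no gene's difference could pass 0.05, and non-overlap of the groups is reported as a description.

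**Figure D1:**
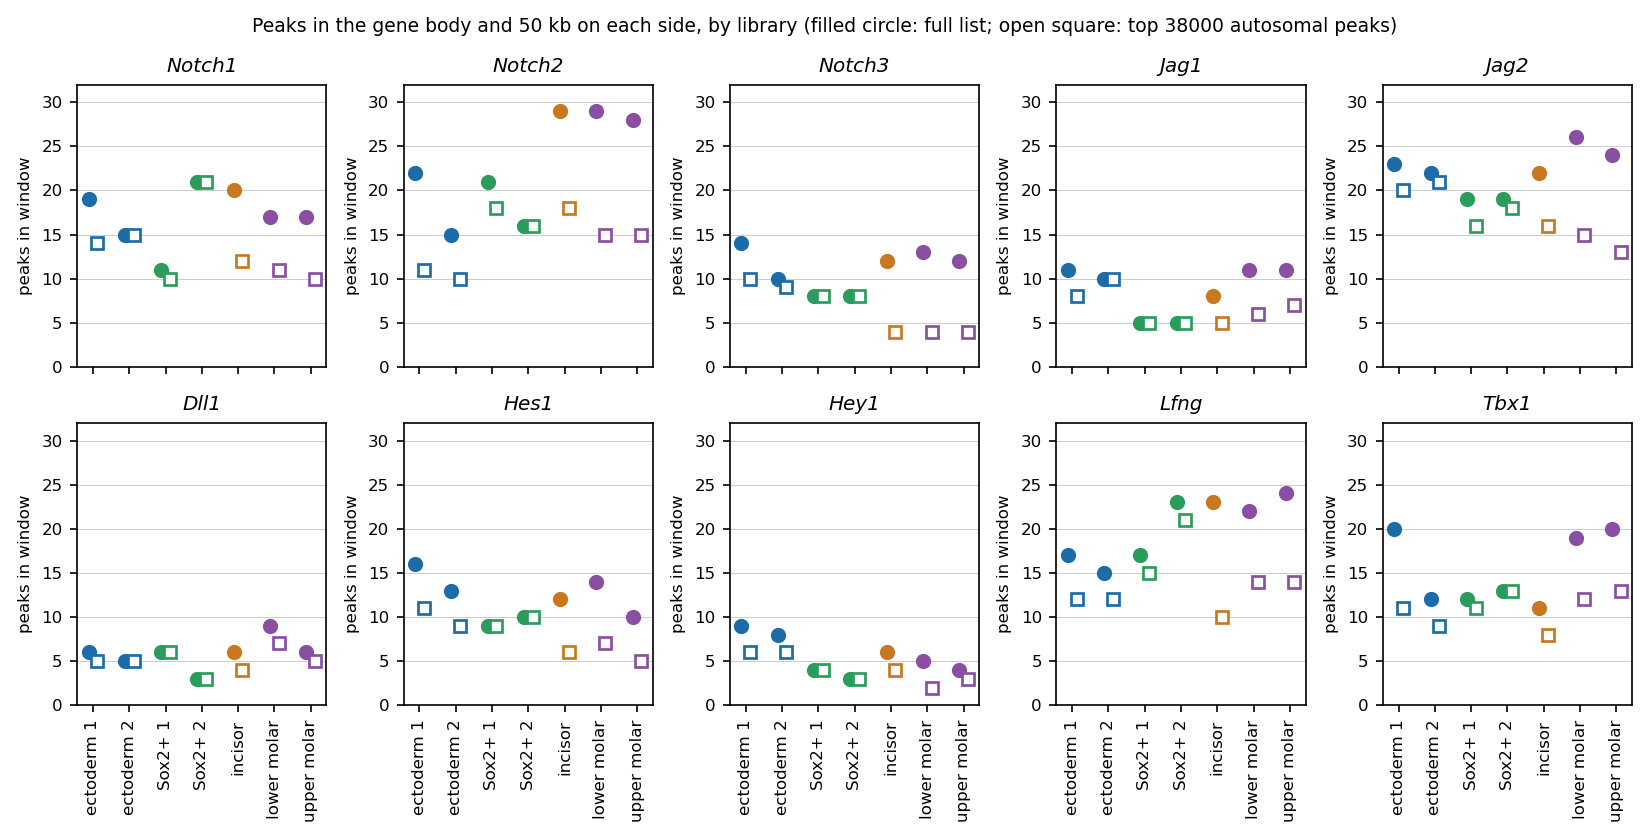
Number of peaks inside or within 50 kb of each of the 10 genes in each of the 7 libraries, in the full lists (filled circles) and in the 38000 autosomal peaks of each library with the lowest p-values (open squares); each point is 1 library. At Jag1 the ectoderm libraries (11 and 10 peaks in the full lists) sit above the Sox2-positive libraries (5 and 5), and at Notch2 the equal-length lists place the Sox2-positive libraries (18 and 16) above the ectoderm libraries (11 and 10).

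Among the ligands, Jag1, which encodes a Jagged-family ligand of the dental epithelium and mesenchyme (chromosome 2, 137081451 to 137116520 on the minus strand of GRCm38), had 11 and 10 peaks in ectoderm, 5 and 5 in Sox2-positive cells, with 8 in the incisor and 11 in each molar. The ectoderm mean was 2.10 times the Sox2-positive mean (10.5 ± 0.707 against 5 ± 0, SD, n = 2 each; exact two-sided permutation p = 0.333). The groups did not overlap, and the whole teeth reached from between the 2 groups up to the ectoderm level. At equal length the numbers were 8 and 10 in ectoderm, 5 and 5 in Sox2-positive cells, and 5, 6 and 7 in the incisor, lower molar and upper molar. The groups again did not overlap, and the teeth lay at or above the Sox2-positive level and below ectoderm.

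Most of the additional ectoderm regions at Jag1 lay inside the gene. Of the 10 merged regions in the gene body, 6 had a peak in both ectoderm and neither Sox2-positive library, at 6.18, 8.50, 9.09, 13.2, 17.1 and 20.9 kb from the start along the gene. Of these 6, 5 had a peak in no other library, and the region at 6.18 kb was also found in the incisor and the lower molar. The strongest of the ectoderm regions was chr2:137102849-137103712, 13.2 kb from the start, with peak signals of 3117 and 1322 in the 2 ectoderm lists. It was kept in both ectoderm lists at equal length. The deposited tables used here do not resolve exons from introns, so these sites are placed only within the gene body. A further ectoderm region, chr2:137073388-137074670, lay beyond the end of Jag1 in the neighbouring gene Slx4ip and at equal length was kept in replicate 2 alone. Both molars, and no other library, had a peak at chr2:137039639-137040274 in Slx4ip, 76.6 kb from the Jag1 start, with signals of 1228 and 1232, and it was kept in both at equal length. No region was in both Sox2-positive and neither ectoderm library.

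**Figure D2:**
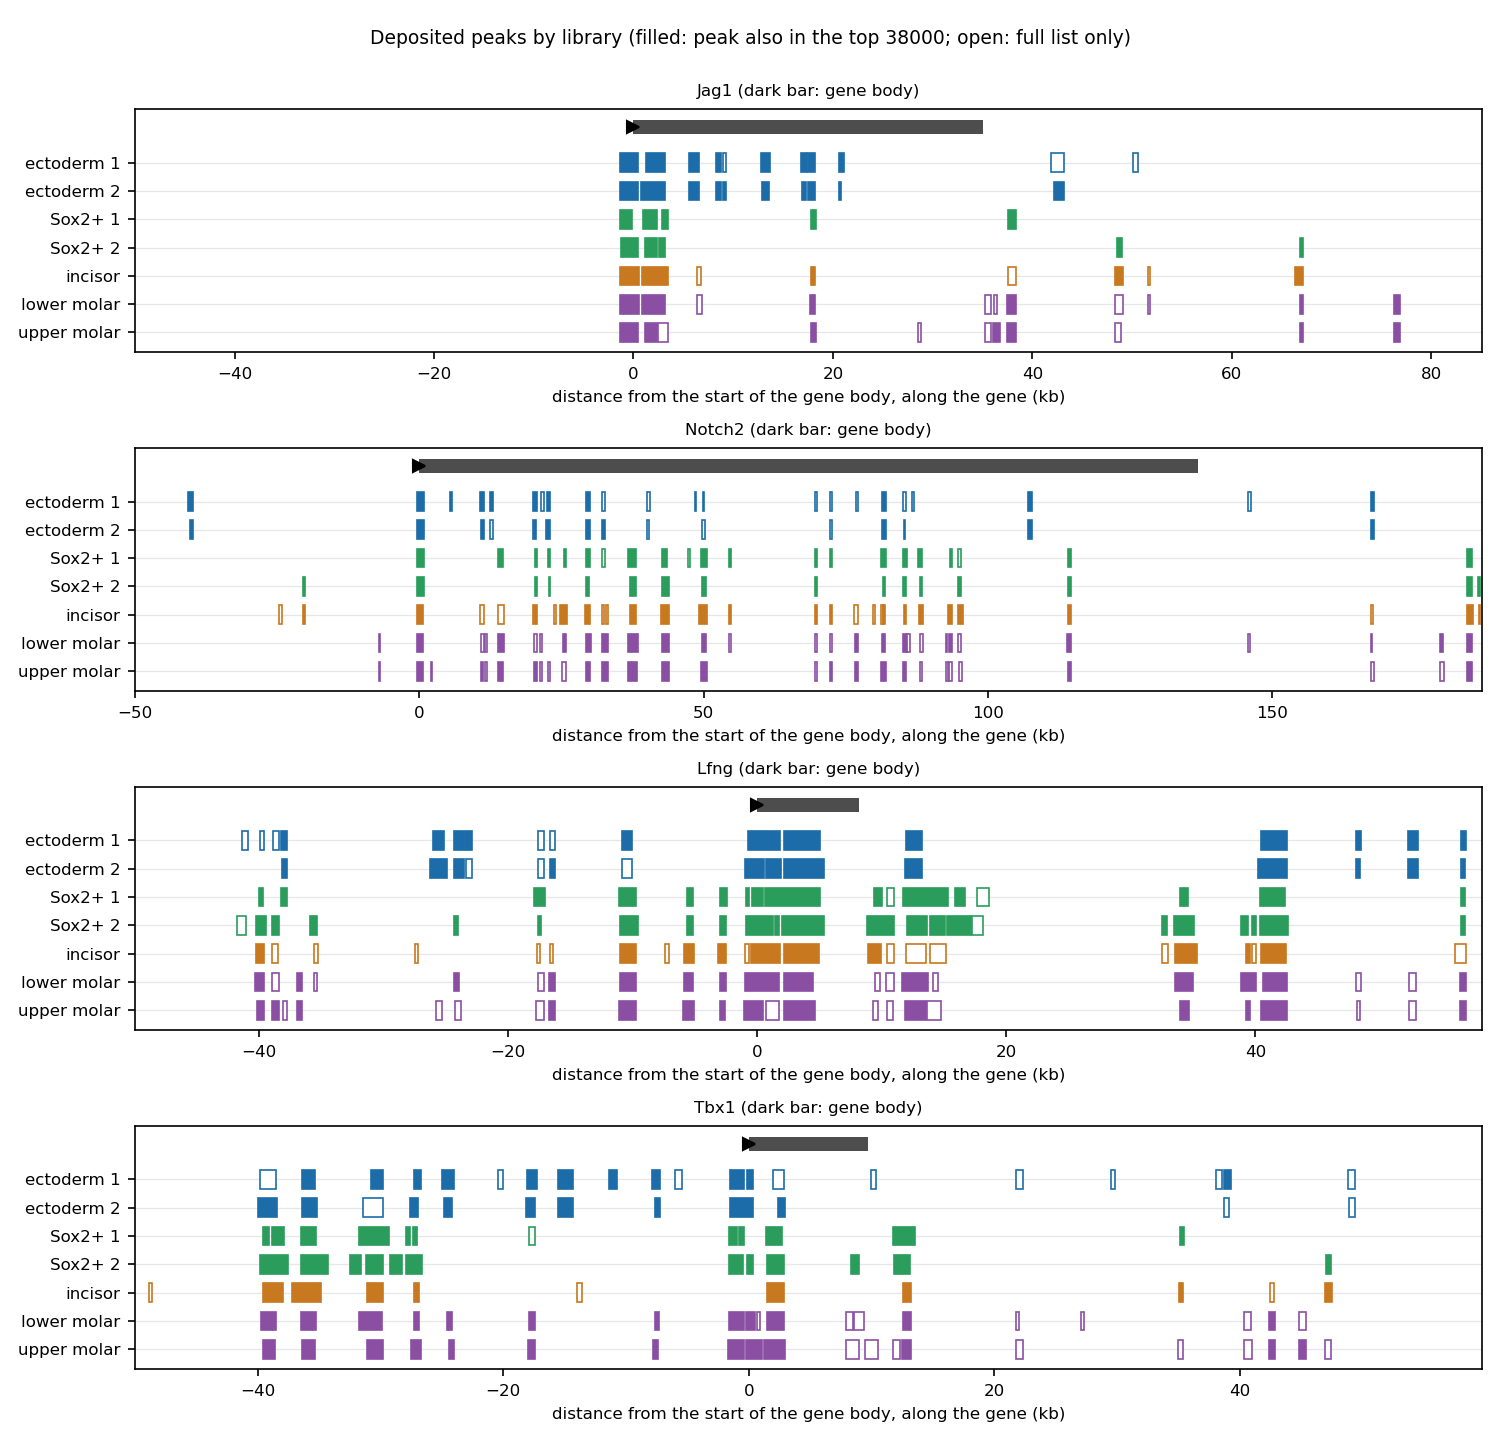
Peaks of the 7 libraries at Jag1, Notch2, Lfng and Tbx1, drawn by distance in kb from the start of the gene body in the direction of transcription, with 1 row per library, the gene body as a dark bar, filled peaks also in the equal-length list and open peaks in the full list alone. Inside Jag1 the rows of the 2 ectoderm libraries hold regions that the Sox2-positive rows lack, and inside Notch2 regions near 37.6, 43.2 and 114 kb appear in the 5 postnatal rows and in neither ectoderm row.

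Jag2, the second Jagged-family ligand gene (chromosome 12, 112907803 to 112929812, minus strand), had 23 and 22 peaks in ectoderm, 19 and 19 in Sox2-positive cells, and 22, 26 and 24 in the incisor, lower molar and upper molar. The ectoderm mean was 1.18 times the Sox2-positive mean, and the groups did not overlap. At equal length the numbers were 20 and 21 in ectoderm, 16 and 18 in Sox2-positive cells, and 16, 15 and 13 in the teeth. There ectoderm was above every postnatal library, whereas in the full lists both molars were above both ectoderm libraries. The groups stood further apart in base pairs under the peaks of the full lists, with 25376 and 24188 in ectoderm, 15638 and 16003 in Sox2-positive cells, and between 21250 and 22921 in the whole teeth. The ratio of the means was 1.57, and the teeth lay between the groups. With equal-length lists the base pairs were 23726 and 23653 in ectoderm, 14258 and 15123 in Sox2-positive cells, and 15919 to 16809 in the teeth. The window is gene-rich, with Gpr132, Nudt14, Brf1 and Btbd6 in it, and Jag2 was the nearest gene for 4 to 6 of the peaks in each library. Within the gene, chr12:112922408-112923135, 7.04 kb from the start, was found in both ectoderm libraries and in no other.

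Dll1, a Delta-family ligand gene (chromosome 17, 15367354 to 15376932, minus strand), had few peaks, 6 and 5 in ectoderm, 6 and 3 in Sox2-positive cells, and 6, 9 and 6 in the incisor, lower molar and upper molar. With lists of equal length the numbers were 5 and 5, 6 and 3, and 4, 7 and 5 in the same order. The groups overlapped in both, and none of its 9 regions was in both libraries of one group and neither of the other. Base pairs under peaks were 7276 and 7084 in ectoderm, 4066 and 2864 in Sox2-positive cells, and 4010, 6073 and 6087 in the incisor, lower molar and upper molar. At equal length they were 6784 and 7084 in ectoderm, 4066 and 2864 in Sox2-positive cells, and 3202, 5629 and 5328 in the teeth. The groups did not overlap in base pairs under peaks although they did in peak number. The incisor of the full lists was close to the higher Sox2-positive library, and the molars lay between the groups.

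RefSeq lists 2 starts for Dll1, 1.109 kb apart. The 250 bases before each are shown because the replicated groups differ at the upstream start and not at the downstream one; capitals mark the bases under a peak in both ectoderm libraries (RefSeq, GRCm38.p6, 5′ to 3′ along the gene).
Dll1 upstream start, chr17:15376933-15377182, minus strand: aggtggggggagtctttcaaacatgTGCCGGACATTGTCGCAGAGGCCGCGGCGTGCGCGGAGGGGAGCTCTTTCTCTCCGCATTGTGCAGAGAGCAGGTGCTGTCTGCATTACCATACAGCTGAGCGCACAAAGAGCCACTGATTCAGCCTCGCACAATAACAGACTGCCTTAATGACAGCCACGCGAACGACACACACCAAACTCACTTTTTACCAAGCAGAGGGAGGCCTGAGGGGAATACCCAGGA
Dll1 downstream start, chr17:15375824-15376073, minus strand: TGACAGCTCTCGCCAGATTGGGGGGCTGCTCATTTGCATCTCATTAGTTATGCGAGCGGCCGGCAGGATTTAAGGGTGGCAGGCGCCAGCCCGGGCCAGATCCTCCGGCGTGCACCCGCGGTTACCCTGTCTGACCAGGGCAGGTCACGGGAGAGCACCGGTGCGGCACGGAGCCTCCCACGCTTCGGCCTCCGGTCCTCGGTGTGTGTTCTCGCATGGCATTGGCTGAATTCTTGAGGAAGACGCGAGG
At the upstream start, peaks covered 235 and 225 of the 250 bases in the ectoderm libraries, 0 and 0 in the Sox2-positive libraries, and 233, 233 and 225 in the incisor, lower molar and upper molar. At the downstream start all 250 bases were covered in each of the 7 libraries. Coverage of the upstream start thus set the sorted cells apart from ectoderm and from all 3 whole teeth, a pattern whose share over all promoters was not counted. The merged region over both starts was in all 7 libraries. Its widest peaks were 1115 and 1116 bp in the Sox2-positive libraries, which have the shortest lists, 2541 and 2655 bp in ectoderm, and 1506 to 2393 bp in the teeth. Of 20085 promoters of autosomal protein-coding genes, 5.46% had a peak in both ectoderm and neither Sox2-positive library in the full lists. In the equal-length lists 3.43% did, and the Dll1 pattern there was the same.

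Of the receptor genes, Notch1 (chromosome 2, 26457902 to 26503822, minus strand), which encodes a receptor known from dental epithelium, had 19 and 15 peaks in ectoderm, 11 and 21 in Sox2-positive cells, with 20 in the incisor and 17 in each molar. The Sox2-positive replicates lay on either side of all other libraries, so the groups overlapped. They overlapped at equal length too, with 14 and 15 in ectoderm, 10 and 21 in Sox2-positive cells, and 12, 11 and 10 in the teeth. Peaks covered 16934 and 17610 bp in ectoderm, 9197 and 13195 in Sox2-positive cells, and 15890, 13158 and 11794 in the incisor, lower molar and upper molar. By base pairs under peaks ectoderm was higher in both replicates, also at equal length (15302 and 17610 against 8473 and 13195 bp). Of its 23 regions, 4 were in both ectoderm and neither Sox2-positive library. The region chr2:26539663-26541130, 36.6 kb upstream of the start, and the region chr2:26496539-26497571, 6.77 kb inside the gene, were found in no other library. Another, chr2:26500622-26501405, 2.81 kb inside the gene, was also found in all 3 whole teeth. In the other direction chr2:26474843-26475677, 28.6 kb inside the gene, was found in the 5 postnatal libraries and in neither ectoderm library, and at equal length in Sox2-positive replicate 2 alone.

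At Notch2, the second receptor gene and the longest of the 10 at 136.83 kb (chromosome 3, 98013538 to 98150367, plus strand), the full lists held 22 and 15 peaks in ectoderm, 21 and 16 in Sox2-positive cells, and 29, 29 and 28 in the incisor, lower molar and upper molar. The replicated groups had equal means of 18.5, and all 3 whole teeth lay above them. The equal-length lists gave 11 and 10 in ectoderm, 18 and 16 in Sox2-positive cells, and 18, 15 and 15 in the incisor, lower molar and upper molar. There the groups did not overlap (10.5 ± 0.707 against 17 ± 1.41, SD, n = 2 each), and every postnatal library was above both ectoderm libraries. In the full lists both Sox2-positive libraries were above ectoderm replicate 2 (15 peaks) and both were below ectoderm replicate 1 (22 peaks).

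Of the 44 Notch2 regions, 6 were in both Sox2-positive and neither ectoderm library. That number was the highest of the 10 genes, in the longest window (237 kb), and Lfng had 5 of 27 in a window of 108 kb. Each of the 6 Notch2 regions was also found in all 3 whole teeth. They included chr3:98050298-98051992, chr3:98055973-98057413 and chr3:98127480-98128206, at 37.6, 43.2 and 114 kb inside the gene. A further one, chr3:98197725-98198736, lay 185 kb from the start, past the gene end, with Reg4 as the nearest gene. All 4 of these were kept in the 5 postnatal libraries at equal length. Notch2 also had 6 regions in both ectoderm and neither Sox2-positive library. Among these chr3:98120601-98121276, 107 kb inside the gene, and chr3:97972943-97973798, 40.2 kb upstream with Gm5544 nearest, were found in ectoderm and no other library.

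Notch3, a receptor gene best known from the smooth muscle of vessel walls (chromosome 17, 32120820 to 32166896, minus strand), had 14 and 10 peaks in ectoderm, 8 and 8 in Sox2-positive cells, and 12, 13 and 12 in the incisor, lower molar and upper molar. Base pairs under peaks were 12451 and 11290 in ectoderm, 4638 and 5663 in Sox2-positive cells, and 7300, 8722 and 6989 in the teeth in the same order. The ratio of the mean base pairs under peaks was 2.30, the largest of the 10 genes in the full lists, and the groups did not overlap. In the equal-length lists the base pairs were 11103 and 10926 in ectoderm, 4638 and 5663 in Sox2-positive cells, and 2416, 3601 and 3076 in the teeth, all 5 postnatal libraries being below ectoderm.

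The start of Notch3 was among the sites that differed in width. The widest peak there was 2178 and 1996 bp in the ectoderm libraries and 415 and 1012 in the Sox2-positive libraries. It was 643, 583 and 255 bp in the incisor, lower molar and upper molar. By signal the strongest peak at the start stood within the top 6.13% and 12.8% of the ectoderm lists. It stood at 88.2% and 56.4% of the Sox2-positive lists and at 62.3%, 85.3% and 79.6% of the tooth lists, where 100 would be the weakest peak. These ranks come from lists of different lengths and are given as positions within each list. Counted by nearest gene, Notch3 had 7 and 6 peaks in ectoderm and 6 and 7 in Sox2-positive cells, so the excess in number lay at peaks nearer to other genes. The mural-cell markers, genes of the vessel-wall cells for which Notch3 is best known, had start peaks at 4 and 3 of 4 genes in ectoderm, 4 and 3 in Sox2-positive cells, and 4, 3 and 4 in the teeth; their part in the Notch3 values was not tested.

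**Figure D3:**
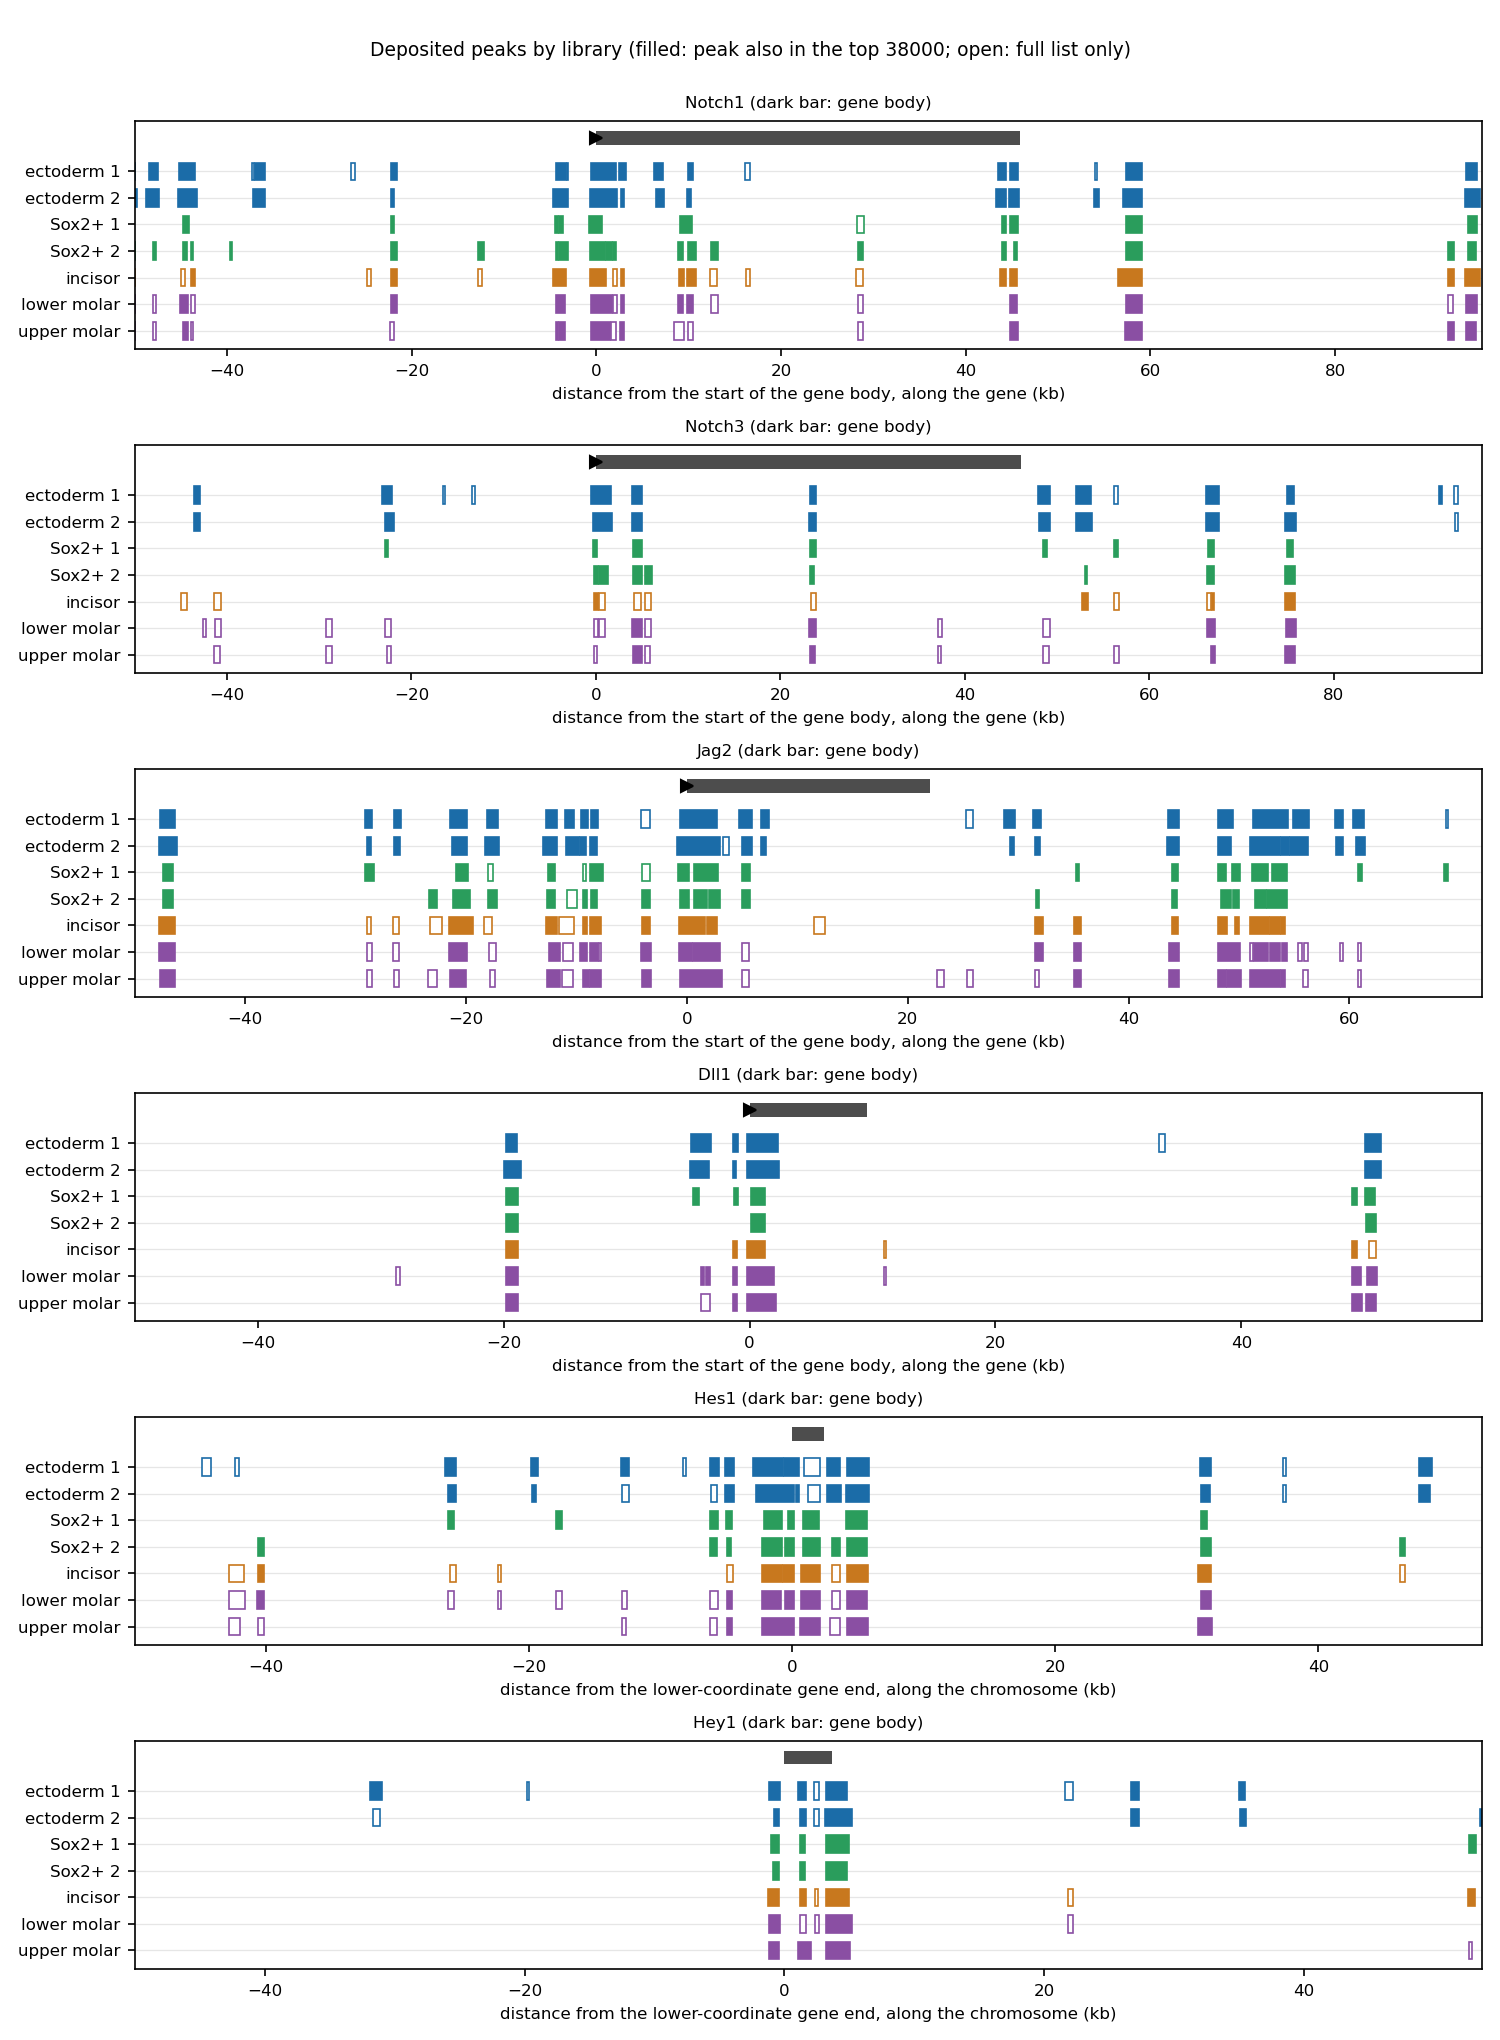
Peaks of the 7 libraries at Notch1, Notch3, Jag2, Dll1, Hes1 and Hey1, drawn by distance in kb from the start of the gene body in the direction of transcription (for Hes1 and Hey1 from the lower-coordinate gene end along the chromosome), with 1 row per library, the gene body as a dark bar, filled peaks also in the equal-length list and open peaks in the full list alone. Every row has a peak at each start (for Hes1 and Hey1, at a gene end). The widest peak at the Notch3 start is longer in the 2 ectoderm rows (2178 and 1996 bp) than in the others (255 to 1012 bp).

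Lfng, the Fringe enzyme gene (chromosome 5, 140607341 to 140615545, plus strand), leaned the other way. It had 17 and 15 peaks in ectoderm, 17 and 23 in Sox2-positive cells, and 23, 22 and 24 in the incisor, lower molar and upper molar. The groups met at 17 in the full lists. Equal-length lists gave 12 and 12 in ectoderm, 15 and 21 in Sox2-positive cells, and 10, 14 and 14 in the teeth. The replicated groups did not overlap there (12 ± 0 against 18 ± 4.24, SD, n = 2 each), and the incisor lay below both groups. Base pairs under peaks in the full lists were 16110 and 16065 in ectoderm, 19176 and 24993 in Sox2-positive cells, and 20938, 20161 and 19613 in the teeth. All 5 postnatal libraries exceeded both ectoderm libraries by this measure in the full lists. At equal length the values were 13929 and 14306 in ectoderm, 17613 and 23419 in Sox2-positive cells, and 13629, 16517 and 13792 in the teeth, so the incisor and the upper molar lay below both ectoderm libraries. Lfng was the one gene of the 10 whose base pairs were higher in both Sox2-positive libraries in the full lists, beside 3.43% of all genes, while 7 of 10 were higher in both ectoderm libraries, beside 65.5% of all genes. At equal length these were 3 (Notch2, Lfng and Tbx1), beside 9.29%, and the same 7 (Notch1, Notch3, Jag1, Jag2, Dll1, Hes1 and Hey1), beside 49.6%.

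Of the 27 Lfng regions, 5 were in both Sox2-positive and neither ectoderm library, and 5 were the reverse. The Sox2-positive regions flanked the gene closely on both sides. The regions chr5:140601408-140602257 and chr5:140604154-140604873 lay 5.51 and 2.83 kb upstream of the start, and chr5:140616188-140618348 lay just past the gene end, 9.93 kb from the start. These 3 regions and chr5:140640822-140642694, in the neighbouring gene Ttyh3, were found in all 5 postnatal libraries. The fifth, chr5:140624621-140625950, had peaks in both Sox2-positive replicates but in none of the 3 teeth, and was in no list at equal length. Counted by nearest gene, Lfng had 5 and 6 peaks in ectoderm, 9 and 8 in Sox2-positive cells, and 11, 9 and 10 in the teeth, with no overlap between ectoderm and any postnatal library.

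The start of Lfng was among the strongest peaks of every list, within the top 0.118% to 1.79% by signal, in a merged region of 6424 bp. Its upstream 250 bases are shown because they held the pathway's own binding word; capitals mark the 2 matches to TGGGAA, the core of the RBPJ site, on either strand (RefSeq, GRCm38.p6).
Lfng, chr5:140607091-140607340, plus strand: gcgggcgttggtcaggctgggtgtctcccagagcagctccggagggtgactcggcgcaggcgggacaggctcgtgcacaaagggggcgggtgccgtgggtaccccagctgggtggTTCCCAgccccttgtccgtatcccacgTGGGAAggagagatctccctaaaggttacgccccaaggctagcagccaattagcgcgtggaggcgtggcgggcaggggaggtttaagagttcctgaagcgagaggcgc
The matches began 135 bases upstream of the start on the minus strand and 108 bases upstream on the plus strand, and peaks covered all 250 bases in each of the 7 libraries. The second match was also one to the longer word GTGGGAA, which shared 3 bases with a match to CACGTG, the E-box of the HEY and MYC type. Of the 10 genes, 8 had entries in the promoter table, with 10 promoters of 300 bases between them (Dll1 and Tbx1 had 2 each). Lfng was the one promoter of the 10 with TGGGAA, which 25.6% of all 32851 promoters of that length held. The longer word was in 6.38% and CACGTG in 7.15% of all promoters, and Lfng was again the one member promoter with either. Among words searched on both strands, the N-box CACNAG, the site type of HES proteins, was in 6 of the 10 member promoters and in 42.5% of all. A peak overlapped 7 of the 10 member promoters, taken as the 250 bases before the start, in every full list, and 6 in every equal-length list. The shares over the 20085 promoters of autosomal protein-coding genes were 51.4% and 47.9%. A match describes letters and is no evidence of binding, and no match says only that the letters are not in the window.

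Hes1, the target gene best known as a readout of Notch activity (chromosome 16, 30065357 to 30067796), has no other protein-coding gene in its window. It had 16 and 13 peaks in ectoderm, 9 and 10 in Sox2-positive cells, and 12, 14 and 10 in the incisor, lower molar and upper molar. The ectoderm mean was 1.53 times the Sox2-positive mean (14.5 ± 2.12 against 9.5 ± 0.707, SD, n = 2 each), without overlap. With lists of equal length the numbers were 11 and 9 in ectoderm, 9 and 10 in Sox2-positive cells, and 6, 7 and 5 in the teeth, so the replicated groups overlapped and the teeth were lowest. Peaks of the full lists covered 13876 and 11091 bp in ectoderm, 6936 and 7840 in Sox2-positive cells, and 9966 to 10792 in the teeth. The strongest region found in ectoderm and no other library was chr16:30113015-30114018, 48.2 kb from the lower-coordinate end of the gene, with signals of 2785 and 946. Another, chr16:30045516-30046023, lay 19.6 kb on the other side.

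Hey1, the second target gene (chromosome 3, 8663359 to 8667038), had 9 and 8 peaks in ectoderm, 4 and 3 in Sox2-positive cells, and 6, 5 and 4 in the incisor, lower molar and upper molar. The ectoderm mean was 2.43 times the Sox2-positive mean (8.5 ± 0.707 against 3.5 ± 0.707, SD, n = 2 each), the largest ratio in peak number among the 10 genes in the full lists. The groups did not overlap, and the teeth ran from between them down to the Sox2-positive level. At equal length the numbers were 6 and 6 in ectoderm, 4 and 3 in Sox2-positive cells, and 4, 2 and 3 in the teeth, and every postnatal library was below ectoderm. Found in ectoderm and no other library were chr3:8698320-8698839, chr3:8689990-8690662 and chr3:8631481-8632350, at 35.2, 27.0 and 31.4 kb from its lower-coordinate end. At equal length the last of these was kept in ectoderm replicate 1 alone and the others in both. The nearest gene to the first pair is LOC115489673.

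Tbx1, the T-box gene (chromosome 16, 18580979 to 18590671, minus strand), had 20 and 12 peaks in ectoderm, 12 and 13 in Sox2-positive cells, with 11 in the incisor, 19 in the lower molar and 20 in the upper molar. The number overlapped between the replicated groups, and the molars matched the higher ectoderm library while the incisor was lowest. With equal-length lists the numbers were 11 and 9, 11 and 13, and 8, 12 and 13 in the same order. Tbx1 had 8 of its 30 regions in both molars and not in the incisor, among the 31 such regions at all 10 genes (13.5% of their 229 regions, beside 11.9% of all regions). Some of these were shared with ectoderm: chr16:18614676-18615679 and chr16:18597891-18598546, 24.5 and 7.55 kb upstream, were found in both ectoderm libraries and both molars and in neither the incisor nor the Sox2-positive cells, in the full and the equal-length lists. The region chr16:18604975-18606214, 14.9 kb upstream, was found in ectoderm and no other library, with signals of 2763 and 1723. Gp1bb is the nearest gene to this region and to the one at 24.5 kb. In the other direction chr16:18577143-18578939, past the gene end, was found in all 5 postnatal libraries and neither ectoderm library, also at equal length.

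The tissues differed at the starts of Tbx1. RefSeq lists 2, 1.772 kb apart, and the 250 bases before each are shown for that reason; capitals mark the bases under a peak in both ectoderm libraries (RefSeq, GRCm38.p6, 5′ to 3′ along the gene).
Tbx1 upstream start, chr16:18590672-18590921, minus strand: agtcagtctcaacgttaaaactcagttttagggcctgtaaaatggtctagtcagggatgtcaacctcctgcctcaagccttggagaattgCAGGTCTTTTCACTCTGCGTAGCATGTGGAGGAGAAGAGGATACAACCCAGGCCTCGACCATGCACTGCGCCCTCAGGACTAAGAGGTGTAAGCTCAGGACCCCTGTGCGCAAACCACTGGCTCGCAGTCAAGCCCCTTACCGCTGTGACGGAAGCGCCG
Tbx1 downstream start, chr16:18588900-18589149, minus strand: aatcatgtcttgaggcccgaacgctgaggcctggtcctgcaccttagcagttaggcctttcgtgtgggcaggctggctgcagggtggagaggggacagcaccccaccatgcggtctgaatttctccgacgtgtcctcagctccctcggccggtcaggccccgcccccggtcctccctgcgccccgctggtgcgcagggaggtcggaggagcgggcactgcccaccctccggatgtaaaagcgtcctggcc
At the upstream start, peaks covered 160 and 250 of the 250 bases in the ectoderm libraries, 0 and 189 in the Sox2-positive libraries, 0 in the incisor, and 227 and 247 in the lower and upper molar. The Sox2-positive replicates differed from each other there. At the downstream start the ectoderm libraries had 0 and 0 bases covered, and each of the 5 postnatal libraries had all 250. That pattern, all 5 postnatal libraries and neither ectoderm library, was shared by 0.309% of the 20085 promoters in the full lists and 0.478% in the equal-length lists, and the downstream Tbx1 start had it in both. Any peak in both Sox2-positive and neither ectoderm library was found at 0.398% and 0.906% of the promoters. The merged region over the downstream start, chr16:18587689-18589399, was in all 7 full lists, with ectoderm peaks of 925 and 575 bp outside these 250 bases. A peak near either start was enough for Tbx1 to count as having a start peak.

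**Figure D4:**
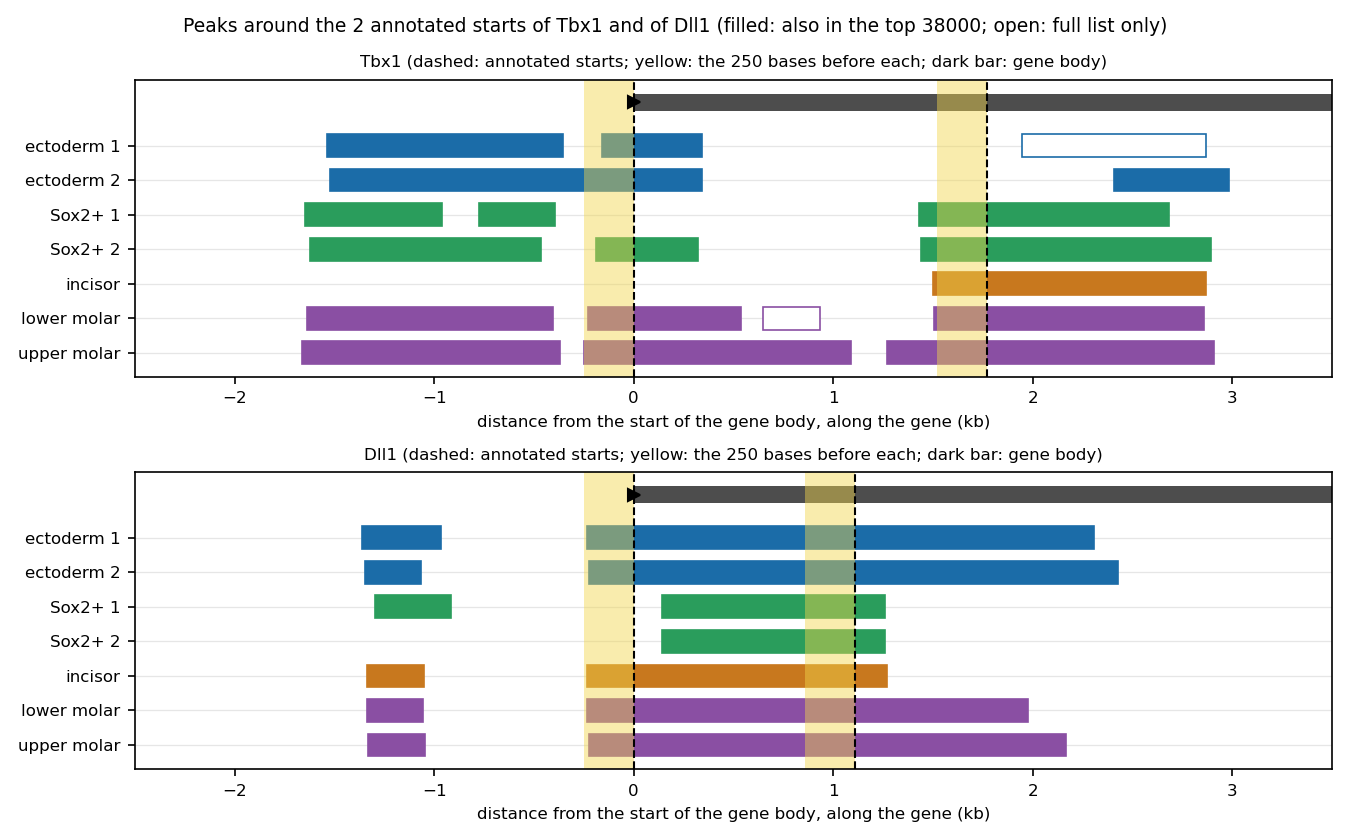
Peaks of the 7 libraries around the 2 RefSeq starts of Tbx1 and of Dll1, by distance in kb from the start of the gene body along the gene; bars are peaks (filled where also in the equal-length list, open where in the full list alone), dashed lines mark the starts and yellow bands the 250 bases before each. The band at the downstream Tbx1 start is covered in the 5 postnatal rows and lies between peaks in the ectoderm rows, and the band at the upstream Dll1 start is covered by 225 to 235 bases in every row but the 2 Sox2-positive ones.

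Over all 10 genes, the peaks of the 7 libraries merged into 229 regions. Of these, 55 were in all 7 libraries (24.0%, beside 14.2% of all 128642 regions in the full lists; 19.3% beside 19.2% in the equal-length lists). The members' share above the background in the full lists was thus not present at equal length. Both ectoderm and neither Sox2-positive library had 42 regions (18.3%, beside 17.9% of all regions), and the reverse held for 13 (5.68%, beside 5.9%). In the equal-length lists these were 30 of 171 (17.5%, beside 15.7%) and 16 of 171 (9.36%, beside 12%). Both shares were near those of the genome as a whole, so the 10 genes taken as a list did not differ much from other regions. The split of these regions by gene is given as a description, with no background share for a single gene. Ectoderm and no other library had 27 of the 42 (11.8%, beside 11.7%), and 12 of the 13 were in all 5 postnatal libraries (5.24%, beside 4.61%). At equal length these were 25 (14.6%, beside 12.8%) and 12 (7.02%, beside 6.29%). In the full lists Jag1 held 7 ectoderm regions and 0 Sox2-positive ones, Hey1 and Hes1 4 each and 0, Jag2 5 and 0, Notch2 6 and 6, and Lfng 5 and 5. At equal length Notch2 held 4 and 8, Lfng 3 and 6, and Hes1 2 and 1.

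**Figure D5:**
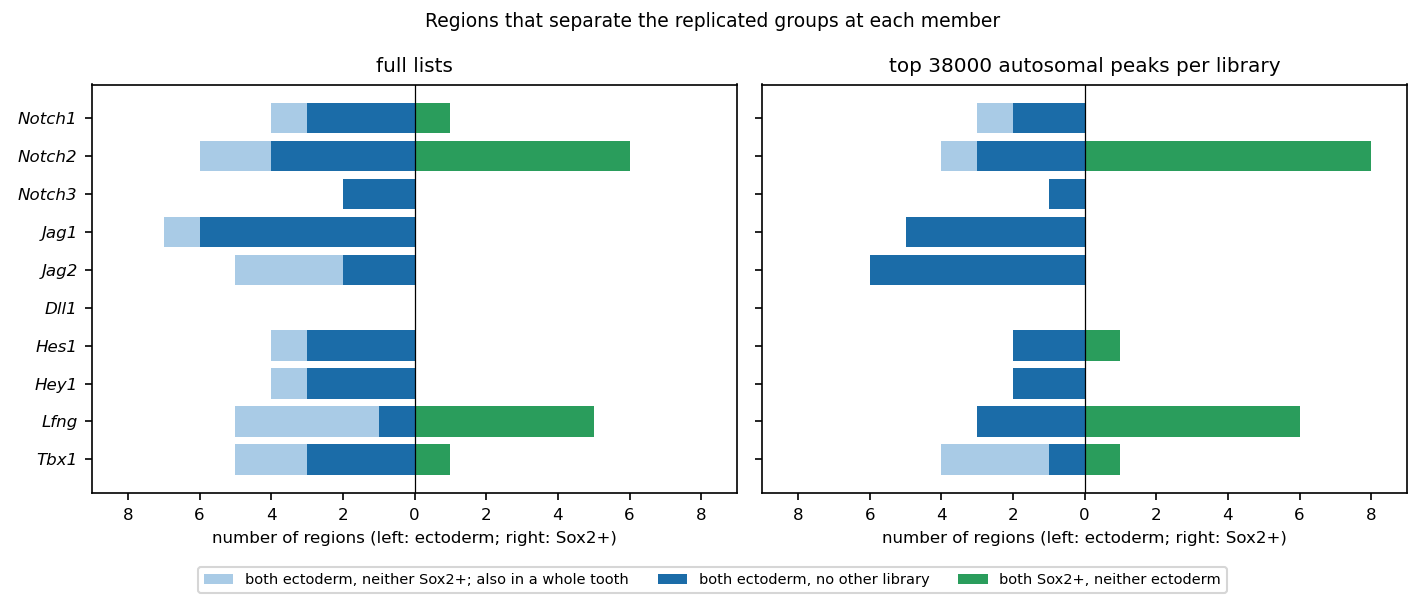
Number of merged regions at each of the 10 genes in both ectoderm and neither Sox2-positive library (left; light blue where also in a whole tooth, dark blue where in no other library) and in both Sox2-positive and neither ectoderm library (right, green), in the full and the equal-length lists. In the full lists Jag1 (7 and 0), Jag2 (5 and 0), Hes1 (4 and 0) and Hey1 (4 and 0) have bars on the left alone, and Notch2 (6 and 6) and Lfng (5 and 5) on both sides.

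The whole teeth shared more of the Sox2-positive regions at these genes than of the ectoderm ones. Of the 13 regions in both Sox2-positive and neither ectoderm library, 12 were in all 3 whole teeth (92.3%, beside 78.1% of such regions over all autosomes), the exception being the one near Lfng. Of the 42 ectoderm regions, 15 were in at least 1 whole tooth (35.7%, beside 34.3%), 7 in the incisor (16.7%, beside 13.1%) and 11 in both molars (26.2%, beside 22.8%). At equal length 12 of 16 Sox2-positive regions were in all 3 teeth (75%, beside 52.3%), and 5 of 30 ectoderm regions were in at least 1 (16.7%, beside 18.04%). With 1 library per tooth these shares have no replicate check. Regions in the incisor and neither Sox2-positive library numbered 26 in the full lists (11.4%, beside 15.7%) and 1 in the equal-length lists (0.585%, beside 8.12%). The reverse, both Sox2-positive libraries and not the incisor, held for 5 regions (2.18%, beside 0.97%) and 12 at equal length (7.02%, beside 4.69%).

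Both molars and not the incisor had 31 of the 229 regions, as given above, and the incisor and neither molar had 18 (7.86%, beside 9.24%). At equal length these were 19 of 171 (11.1%, beside 10.8%) and 13 (7.60%, beside 12.2%). Both molars and no other library had 12 (5.24%, beside 6.26%), and the incisor alone 10 (4.37%, beside 5.79%). At equal length these were 4 (2.34%, beside 4.83%) and 0 of 171 (beside 4.36%). Ectoderm and both molars, without the Sox2-positive cells and the incisor, shared 6 regions (2.62%, beside 2.36%), or 3 at equal length (1.75%, beside 1.2%), of which the pair upstream of Tbx1 formed part. The lower molar without the upper had 17 regions (7.42%, beside 6.91%) and the upper without the lower 13 (5.68%, beside 5.89%), or 9 (beside 5.43%) and 8 (beside 5.54%) at equal length. Each of these tooth shares lay within 5 percentage points of the share over all regions.

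Of 40 other genes of the pathway, 31 had a start peak in every library in the full lists, beside 55.7% of all genes, and 30 at equal length, beside 51.4%. They included Rbpj, the DNA-binding partner of the cut receptor, and the Maml co-activator genes. Peak numbers were higher in both ectoderm libraries for 22 of 40 (55%, beside 41.4% of all genes) and in both Sox2-positive libraries for 1 (2.5%, beside 3.07%), Spen, a repressor that binds RBPJ. At equal length these were 11 (27.5%, beside 20.1%) and 9 (22.5%, beside 17.6%). The other 9 genes lacked a start peak in at least 1 full list. Dll3, a Delta-family ligand gene, had one in both ectoderm libraries and in no other, in the full and the equal-length lists. Dlk1, which encodes a Delta-like protein, had one in both ectoderm libraries and the lower molar, and at equal length in both ectoderm libraries alone. Notch4, the fourth receptor gene, had one in Sox2-positive replicate 2 and the incisor, and at equal length in the former alone. Among Hes genes, Hes5 had one in both ectoderm libraries, the incisor and the lower molar, and at equal length in ectoderm replicate 1 alone. Hes2 had one in both ectoderm libraries and in no other in the full lists, and in none at equal length. Hes7 had one in the incisor and the lower molar alone, in both kinds of list. Hes3 and the ubiquitin-ligase gene Dtx1 had one in ectoderm replicate 1 alone in the full lists and in none at equal length. Neurl1a, a ubiquitin ligase that acts on ligands, had one in every full list but that of Sox2-positive replicate 1, and at equal length in ectoderm replicate 2, Sox2-positive replicate 2 and the incisor.

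Base pairs under peaks in the equal-length lists varied most over the 7 libraries at Notch3 (coefficient of variation 0.615), followed by Dll1 (0.334), Notch1 (0.285) and Notch2 (0.277). The genes on other chromosomes whose base pairs followed these most closely over the 7 libraries, by Pearson r, are given as a description. The points share lists of fixed length and 2 pairs of replicates. The genes were picked as the highest r among 15395 to 15931 genes compared over 7 points, so their r is high by selection. They were Tmem37 (0.993), Ccdc61 (0.988) and Cdpf1 (0.988) for Notch3. For Dll1 they were Tom1l1 (0.996), Rpl31-ps12 (0.994) and Lsm8 (0.992). Notch1 had Parp8 (0.985), Actg1 (0.983) and Matn1 (0.981), and Notch2 had Galnt1 (0.996), Sprn (0.992) and Aox3 (0.986).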

How the data were processed

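Omni-ATAC libraries of 7 mouse samples were analysed from their deposited peak lists, which are in the narrowPeak layout and give each library its own peak calls. Per the submitters' processing notes, FastQC, Trimmomatic, Bowtie2, deepTools and Genrich were used, with the build mm10. Versions, options, read filters and the shift of reads for the transposase are not given in the sources used here. The deposited signal of a peak has no stated normalization between libraries and was used only to rank peaks within a list. The deposited −log10 p of a peak, from 2.56 to 17.8 over the lists, chose the 38000 autosomal peaks of each equal-length list. The deposited score and the q-value column, which held −1, were not used. The lists hold no counts, so depth is unknown and no count model applied.

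Groups came from the sample titles. Gene positions came from RefSeq GRCm38.p6. A gene's start was taken from the promoter table, which had the start of 16457 of 20665 autosomal protein-coding genes and of 8 of the 10 described; for the others, Hes1 and Hey1 included, either gene end was accepted. Peaks of all lists were merged into regions where they shared at least 1 bp, and a region was in a library if at least 1 bp lay under one of its peaks. Counts of genes whose 2 ectoderm and 2 Sox2-positive values did not overlap were set beside the same share over all genes, with no test across genes or regions. The computations used Python 3.11.15, numpy 2.4.6, pandas 2.3.3 and scipy 1.17.1, and were tested on simulated data. The genes, the gene lists and the tests were chosen with earlier results of these data known. All 10 genes are described; regions were named by group pattern and by the rank of their signal, at most 4 per gene for the replicated groups and 2 for the teeth, and a few more, inside Jag1 and around Lfng, Notch2 and Tbx1, were named after their values were seen. Likeness was given for the 4 most variable genes. Markers of epithelium, mesenchyme, ameloblasts, odontoblasts, endothelium, mural cells, blood and nerve were counted at gene starts. In ectoderm replicates 1 and 2, Sox2-positive replicates 1 and 2, incisor, lower molar and upper molar, in that order and in the full lists, ameloblast genes had start peaks at 1, 1, 2, 2, 2, 3 and 4 of 5 and odontoblast genes at 1, 1, 1, 2, 3, 1 and 2 of 3. Endothelial genes had them at 1, 1, 1, 2, 3, 3 and 1 of 6, and every library at 2 of 5 blood and 2 of 3 autosomal nerve genes.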

Additional observations from a re-analysis of the deposited data

How the results depend on the processing

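The number of genes with more peaks in both ectoderm than both Sox2-positive libraries, 5 with the full lists and 50 kb windows, was 2 when the equal-length lists were chosen by signal, 3 with 25 kb windows and 2 with gene bodies alone. It was 4 with equal-length lists by p-value, 4 by nearest gene, 7 with the strongest 50% of each list and 7 by base pairs, and 5 to 7 with 1 library left out. Jag1 and Hey1 were among the genes in each of these settings, which with a library left out follows from the rule itself. The reverse count, 0, was 2 with either kind of equal-length list, and 1 with 25 kb windows, by nearest gene or by base pairs, and 0 to 2 with 1 library left out, reaching 2 without ectoderm replicate 1 and without Sox2-positive replicate 1. The 42 regions in both ectoderm and neither Sox2-positive library were 26 with 25 kb windows and 14 in gene bodies, and 43 to 68 with 1 library left out, the highest without ectoderm replicate 2. The 13 regions in both Sox2-positive and neither ectoderm library were 7 with the strongest 50% of each list and 6 in gene bodies, and 13 to 31 with 1 library left out (31 without Sox2-positive replicate 1, 24 without Sox2-positive replicate 2). Smaller windows and shorter lists hold fewer peaks by construction. Leaving out a library removes a condition from the rule, so those counts can only stay or rise and are no check of it. Other causes were not tested. The count of genes with a start peak in every library, 10, was 7 to 10 throughout. Of 70 counts for a single gene and library, 60 moved by over 1.5 times with gene bodies alone, 53 with the strongest 50% of each list, 33 by nearest gene, 25 with either kind of equal-length list and 24 with 25 kb windows. No paired analysis was possible because the results come from no fitted test in which a replicate block could stand, and the replicates of the 2 groups share only a number. Depth is unknown, so a site missing from a shorter list may lie below its threshold, and the exact two-sided permutation test of 2 libraries against 2 cannot give a p below 0.333.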

Other observations

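Of the 7 mesenchyme markers, Msx1 and Col1a1 had a start peak in all 7 libraries in the full and the equal-length lists, and Twist1 in all 7 full lists and in all but ectoderm replicate 1 at equal length. The start of Pdgfra, which encodes a growth factor receptor of mesenchyme, had a peak in all 5 postnatal libraries, the sorted Sox2-positive cells included, and in neither ectoderm library, in both kinds of list. Prrx1 had one in every full list but that of ectoderm replicate 1, and at equal length also lacked it in both molars. Barx1, a homeobox gene of molar mesenchyme, had its start peak in the molars and ectoderm replicate 1, and at equal length in the molars alone. Col3a1 had one in the upper molar alone, and in no list at equal length.

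Of the endothelial genes, Kdr had a start peak in all 7 full lists and at equal length in the ectoderm and Sox2-positive libraries and no whole tooth. Tie1 had one in Sox2-positive replicate 2, the incisor and the lower molar, and at equal length in the first pair alone. Cdh5 had one in the incisor and the lower molar, and in no list at equal length.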
